A study of Mus musculus with 18 samples.

Results

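The effect of targeting Ncor1 on the transcriptome was compared between 2 mouse tumour cell lines, Hepa1-6, derived from a hepatoma, and B16, derived from a melanoma. All 18 libraries of the series entered 1 fit, and the quantity tested for each gene was the knockout effect in Hepa1-6 minus the knockout effect in B16, called the line difference below. Each effect was the mean of both Ncor1 guides against the control guide on the log2 scale. Each line's deposit listed 32015 genes, of which 14044 had enough counts to be tested, and 25 of them (0.178%) had a line difference with an adjusted p under 0.05 (edgeR's quasi-likelihood test, Benjamini-Hochberg adjustment over all genes tested). These 25 are called line-dependent genes. Here a gene is said to be called when its adjusted p lies under 0.05.

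Each line had 3 libraries of cells with the control guide sgCtrl, labelled WT, and 3 with each of the guides sgNcor1-1 and sgNcor1-2, labelled Ncor1 knockout. A library is named by its line, guide and number, so that sgCtrl 1 is the control library numbered 1. Nothing in the labels tells pools from single clones, or separate cultures from repeats of 1 culture. The p-values below therefore measure only the spread between libraries, which may be technical. In bulk RNA, fewer cells of a kind and less RNA per cell cannot be told apart.

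NCOR1 is a nuclear corepressor. It bridges nuclear receptors to histone deacetylase 3, and so keeps their target genes low. These include the thyroid hormone and retinoic acid receptors, LXR and PPAR without ligand, and the clock repressors REV-ERB. The receptors that NCOR1 meets differ between cell types, and in liver it is known for restraining lipid synthesis. The comparison asks which responses to its loss a liver line and a melanocyte line have in common.

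Libraries held 17689324 to 30819681 counts in Hepa1-6 and 15663964 to 25263744 in B16. Of 10 hepatocyte markers 8 reached 1 CPM (counts scaled to library size) in each Hepa1-6 group, with sums of 3361 to 5046 CPM per library, against at most 0.296 CPM in B16. All 8 melanocyte markers reached 1 CPM in B16, with sums of 4891 to 18090 CPM, against at most 3.99 CPM in Hepa1-6. The 3 Hepa1-6 libraries numbered 1 stood apart on the first principal component of their line (-22.7, -64.7 and -63.4, against 11.9 to 34.4 in the other 6), and so did sgNcor1-1 1 in B16 (-93.6, against -26.1 to 48.8). Without the Hepa1-6 libraries numbered 1 the line difference of 6 of the 25 genes was no longer called, namely Mast4 (adjusted p = 0.0741), Bcas1 (0.0994), Esyt1 (0.0731), Klhl30 (0.162), Sort1 (0.116) and Gcat (0.274). Ncor1 itself had 269, 267 and 223 CPM in the Hepa1-6 controls. It had 199.6, 133 and 178 CPM under sgNcor1-1 and 151, 142 and 189.6 CPM under sgNcor1-2. All 6 Hepa1-6 knockout libraries lay below the 3 controls, but the log2 change of -0.61 was not called (SE 0.18, adjusted p = 0.235). In B16 it had 326, 272 and 323 CPM in the controls and 232 to 352 CPM in the knockout libraries, which overlapped, so its RNA is no check of the knockout in B16.

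The 250 bases before the start site of 4 line-dependent genes are shown first (RefSeq, build GRCm38.p6), as examples of the sequence in front of genes that changed in 1 line. Zfp775 (chr6:48601757-48602006, plus strand) was the only one of the 16 line-dependent genes with a promoter entry that held the nuclear receptor element AGGTCA. Pcx (chr19:4510222-4510471, plus strand) was the only called rise in Hepa1-6 among them and the only one with the E-box CACGTG. Frmd8 (chr19:5875209-5875458, minus strand) lies beside Neat1, and Pbxip1 (chr3:89436454-89436703, plus strand) had the largest fall in B16 among the line-dependent genes that kept counts in the B16 knockout libraries. Capitals mark AGGTCA or its complement TGACCT, and CACGTG.
Zfp775: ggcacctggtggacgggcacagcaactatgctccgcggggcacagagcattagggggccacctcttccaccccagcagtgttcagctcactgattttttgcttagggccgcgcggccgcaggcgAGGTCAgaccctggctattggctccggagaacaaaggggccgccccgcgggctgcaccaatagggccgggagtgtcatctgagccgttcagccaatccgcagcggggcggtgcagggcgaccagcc
Pcx: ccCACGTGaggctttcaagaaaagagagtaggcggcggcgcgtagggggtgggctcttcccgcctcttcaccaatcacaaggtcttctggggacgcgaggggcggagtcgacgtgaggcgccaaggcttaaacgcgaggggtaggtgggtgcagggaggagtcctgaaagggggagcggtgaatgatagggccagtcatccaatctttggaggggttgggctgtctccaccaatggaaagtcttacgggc
Frmd8: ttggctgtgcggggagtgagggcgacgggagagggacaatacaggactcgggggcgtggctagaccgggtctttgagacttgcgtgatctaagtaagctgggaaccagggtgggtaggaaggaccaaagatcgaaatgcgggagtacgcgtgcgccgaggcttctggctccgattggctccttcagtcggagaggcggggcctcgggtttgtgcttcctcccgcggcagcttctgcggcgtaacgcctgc
Pbxip1: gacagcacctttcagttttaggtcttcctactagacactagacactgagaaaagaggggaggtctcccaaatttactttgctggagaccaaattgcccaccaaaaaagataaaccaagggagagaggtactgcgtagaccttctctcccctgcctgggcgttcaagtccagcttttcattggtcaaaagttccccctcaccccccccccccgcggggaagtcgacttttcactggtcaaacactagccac
The element AGGTCA stood on either strand of 1 of the 16 promoters (6.25%) and of 10.7% of the 10984 promoters of genes tested. The E-box stood in 1 of 16 and in 8.28% of all, and the cyclic AMP element TGACGTCA in 1 of 16 (Tenm3) and in 2.61% of all. A direct repeat of AGGTCA with 4 bases between, read by thyroid hormone receptor and LXR, and the sterol element TCACCCCAC were in none of the 16, and in 0.0091% and 0.51% of all. These counts describe letters within 250 bases and say nothing of binding.

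Across all genes tested, the effects in the lines had little in common. Over the 14044 genes tested, log2 changes in Hepa1-6 and B16 had a Pearson correlation of -0.02 and a Spearman correlation of -0.08, and 44.2% had the same sign. The lines share no library, and genes are not independent replicates, so these values are a description. Over the 8953 genes with at least 5 CPM in each line the correlations were -0.10 and -0.16, with 45.4% of the same sign. Genes with a fitted change in only a single line counted as not of the same sign. Among the 27 genes called in B16, 70.4% had the same sign, with correlations of 0.27 (Pearson) and 0.26 (Spearman). Among the 52 called in Hepa1-6, 40.4% had the same sign, with correlations of 0.25 and 0.04. Over all 14044 genes the median size of the log2 change was 0.26 in Hepa1-6 and 0.14 in B16.

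In Hepa1-6, 6 genes (0.0427% of those tested) rose and 46 (0.328%) fell in the joint fit, and in B16 3 (0.0214%) rose and 24 (0.171%) fell. The Hepa1-6 calls split into 79 higher and 152 lower by DESeq2, 203 and 394 with the replicate block in both lines, and 30 and 103 with it in B16, and their number ran from 21 to 77 when 1 library was left out. No gene was called in both lines, with the same sign (0%) or with opposite signs (0%), by edgeR with no block and all libraries or by limma-voom, while DESeq2 called 1 of each. With the replicate block in both lines edgeR called 5 genes at opposite signs, Sv2a, Gcat, Nrp2, Fn1 and Creb3l3. It called 2 at the same sign, Dnah11 and Lamb1. Fn1, Creb3l3 and Lamb1 are named after their values were seen. In Hepa1-6 the replicate numbers did not pair all libraries by the rule used. With the replicate block in B16 edgeR called Nrp2 at opposite signs, and without the libraries numbered 1 of both lines it called Nrp2 at opposite signs and Tnxb, a matrix glycoprotein named after its values were seen, at the same sign. At an unadjusted p under 0.05 edgeR counted 1333 genes in Hepa1-6 and 401 in B16, with 17 in both at the same sign and 18 in both at opposite signs. The counts in both were not compared with the number that the counts of each line alone would give. The line difference was positive in 10 called genes (0.0712%) and negative in 15 (0.107%), and 970 genes had an unadjusted p under 0.05 for it. In B16 the replicate numbers paired the libraries, and with the number as a replicate block in B16 the count of line-dependent genes was 41, all 25 among them, 21 positive and 20 negative, and that of genes called in B16 was 47. Without the libraries numbered 1 of both lines, 49 genes had a called line difference, 20 of the 25 among them.

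**Figure D1:**
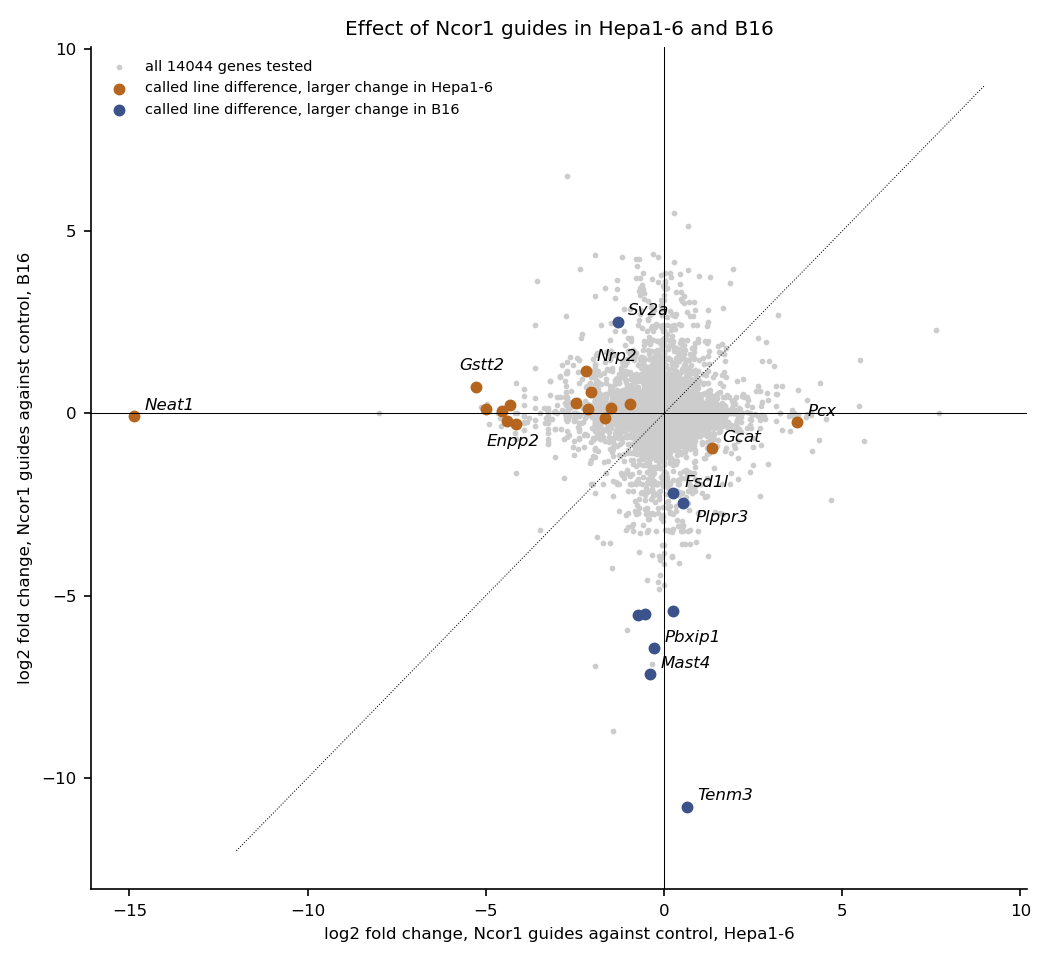
Log2 fold change of both Ncor1 guides against the control guide in Hepa1-6 (horizontal axis) and B16 (vertical axis) for the 14044 genes tested, with the 25 line-dependent genes in colour by the line of the larger change; the dotted line marks equal effects. Coloured points lie along the axes: 16 of the 25 changed by less than 0.5 in the other line. The positions of Neat1, Tenm3 and Mast4 depend on the prior count, since their knockout libraries held 0 counts.

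Of the 25 line-dependent genes, 14 fell in Hepa1-6, 1 rose there, 8 fell in B16, 1 rose in B16, and 1 was called in neither line. In 24 of them the 6 knockout libraries did not overlap the 3 controls in the line of the larger change, the exception being Klhl30. The genes were chosen by a test on these same libraries, so this count is no separate support. Over the 8953 genes with at least 5 CPM in each line, the knockout libraries lay above all controls in 4.27% and below them in 4.97% in Hepa1-6. In B16 these shares were 0.771% and 1.07%. The log2 change in the other line was under 0.5 in size in 16 of them and 1 or more in 2. In 15 of them the call held in each of the 18 fits that left out 1 library: Fsd1l, Marveld2, Mast4, Pbxip1, Plppr3, Tenm3 and Zfp941 among those that changed in B16, and Enpp2, Frmd8, Gstt2, Neat1, Nrp2, Repin1, Spata6 and Pcx among those that changed in Hepa1-6. Of these 15, Mast4 and Zfp941 lost the call with either guide alone, from fewer libraries. Fsd1l and Marveld2 lost it with sgNcor1-2 alone, and Nrp2 with sgNcor1-1 alone.

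Neat1, the long noncoding RNA that builds paraspeckles, lost all counts in the knockout libraries of 1 line. In Hepa1-6 its controls held 38.1, 230.3 and 272 CPM, and no knockout library held a count. Its B16 levels were 182.3, 88.4 and 294 CPM in the controls, 194, 109.7 and 224 CPM under sgNcor1-1, and 147, 91.3 and 313 CPM under sgNcor1-2. The Hepa1-6 groups were fully apart although sgCtrl 1 was far below the other controls, and the B16 groups overlapped over their whole range. With 3 counts taken as the floor of a library, at most 0.175 CPM here, Neat1 was at least 1030-fold lower in the Hepa1-6 knockouts, and the line difference had an adjusted p of 0.00017.

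Frmd8, a FERM domain protein that steadies the iRhom and ADAM17 shedding complex, lies 5494 bases from Neat1 on chromosome 19, measured between the nearest edges of the genes. It had 46.9, 53.1 and 56.4 CPM in the Hepa1-6 controls and 0.96 to 3.27 CPM in the knockout libraries, against 102 to 121 CPM and 57.6 to 134 CPM in B16. The Hepa1-6 groups stood far apart and the B16 groups overlapped. The line difference was -4.60 (SE 0.47, adjusted p = 5.84e-05). Malat1, the abundant nuclear noncoding RNA 22 kb on the other side of Neat1, had 139, 223 and 199.7 CPM in the Hepa1-6 controls and 65.5 to 139 CPM in the knockout libraries, with a log2 change of -1.12 in Hepa1-6 (adjusted p = 0.418) and 0.63 in B16 (adjusted p = 1).

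Repin1 and Zfp775, zinc finger genes that lie 2925 bases apart on chromosome 6, fell together in Hepa1-6. Repin1, named for binding a replication origin, had 3.21, 4.71 and 4.01 CPM in the Hepa1-6 controls and 0 to 0.195 CPM in the knockout libraries, against 47.2 to 56.2 CPM and 41.8 to 88.9 CPM in B16. Zfp775 had 1.3, 0.81 and 1.05 CPM in the Hepa1-6 controls and 0 to 0.117 CPM in the knockout libraries, against 11.1 to 18.5 CPM and 7.38 to 17.7 CPM in B16. Both were far lower in Hepa1-6 than in B16 before any knockout, and in B16 the groups of both genes overlapped. The line difference was -5.12 for Repin1 (SE 0.48, adjusted p = 3.57e-05) and -3.85 for Zfp775 (SE 0.70, adjusted p = 0.0272). The call of Zfp775 was kept in 9 of the 18 fits without 1 library and lost without the libraries numbered 1 of both lines.

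Gstt2, a theta-class glutathione transferase, had 1.09, 1.32 and 1.6 CPM in the Hepa1-6 controls, 0 to 0.116 CPM in the Hepa1-6 knockout libraries, 9.03 to 12.1 CPM in the B16 controls and 12.9 to 20.4 CPM in the B16 knockout libraries. The knockout libraries lay below all controls in Hepa1-6 and above all controls in B16, where the log2 change of 0.73 was not called (adjusted p = 1). The line difference was -6.01 (SE 0.62, adjusted p = 5.84e-05). Its near copies Gstt1 and Gstt3 lie within 51 kb and had log2 changes of 0.10 and -0.14 in Hepa1-6, and the level of each is less certain because reads can be shared among them. Spata6, known for the assembly of the sperm connecting piece, had 3.30 to 5.51 CPM in the Hepa1-6 controls and 0.102 to 0.41 CPM in the knockout libraries, against 63.8 to 92.7 CPM and 68.3 to 145 CPM in B16. The Hepa1-6 groups were apart, the B16 groups overlapped, and the line difference was -4.54 (SE 0.48, adjusted p = 8.8e-05).

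Genes of lipid signalling and guidance at the cell surface also differed. Enpp2 encodes autotaxin, the secreted enzyme that makes lysophosphatidic acid. It had 3.58, 4.91 and 4.81 CPM in the Hepa1-6 controls and 0.0833 to 0.288 CPM in the knockout libraries. In B16, where it was abundant, it had 876 to 1305 CPM in the controls and 581 to 1433 CPM in the knockout libraries. The gene fell in the line where it was low in the controls, the B16 groups overlapped, and the line difference was -4.20 (SE 0.47, adjusted p = 0.000167). Nrp2, the neuropilin that serves as coreceptor for class 3 semaphorins and vascular endothelial growth factor, had 6.38, 6.88 and 5.71 CPM in the Hepa1-6 controls and 0.966 to 2.26 CPM in the knockout libraries. Its B16 levels were 24.4, 44.8 and 48.5 CPM in the controls, 40.6, 87.2 and 113 CPM under sgNcor1-1, and 45.3, 119 and 124 CPM under sgNcor1-2. In B16 each knockout library lay above the control of its own number, though the groups overlapped through the libraries numbered 1. The line difference of Nrp2 was -3.34 (SE 0.53, adjusted p = 0.00807). It fell in Hepa1-6 (log2 change -2.18, SE 0.36, adjusted p = 0.0112), and its change of 1.16 in B16 was not called (SE 0.37, adjusted p = 0.701). With the replicate block in B16 it was called in both lines, at -2.17 (edgeR, adjusted p = 0.000114) in Hepa1-6 and 1.09 (adjusted p = 0.047) in B16, the only gene called at opposite signs in that fit. It was not called with sgNcor1-1 alone (-3.09, adjusted p = 0.0842) or by limma-voom (-3.31, adjusted p = 0.107).

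Pcx, pyruvate carboxylase, a mitochondrial enzyme of gluconeogenesis that refills the citrate cycle, was the only line-dependent gene called as a rise in Hepa1-6. Its Hepa1-6 levels were 15.1, 40.4 and 25.5 CPM in the controls, 329, 338 and 379 CPM under sgNcor1-1, and 309, 371 and 420.3 CPM under sgNcor1-2. In B16 it had 41.2, 53.9 and 50.4 CPM in the controls and 34.4 to 47.4 CPM in the knockout libraries. The Hepa1-6 knockout libraries lay far above all controls, and the B16 groups overlapped. The line difference was 3.96 (SE 0.34, adjusted p = 2.39e-05), the smallest adjusted p of all genes tested. Lrfn4, which overlaps Pcx, had a log2 change of -0.19 in Hepa1-6 (adjusted p = 0.993), and reads of overlapping genes cannot be told apart where no strand is stated.

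The other genes that fell in Hepa1-6 were Cyria, Ctsh, Esyt1, Klhl30, Loxl2 and Sort1, of which the last 5 lie outside the rule for naming and are named after their values were seen. Cyria, a Rac1 interactor that restrains actin branching, had 1.16 to 1.6 CPM in the Hepa1-6 controls and 0.0508 to 0.581 CPM in the knockout libraries, against 17.4 to 34.6 CPM and 23.4 to 35.1 CPM in B16. Loxl2, which crosslinks collagen, had 2.54 to 4.71 CPM and 0.507 to 1.09 CPM in Hepa1-6, against 76.6 to 97.9 CPM and 65.1 to 137 CPM in B16. Ctsh, a lysosomal cathepsin, had 41.9 to 49.8 CPM and 12.3 to 19.4 CPM in Hepa1-6, against 15.1 to 20.4 CPM and 16.7 to 25.8 CPM in B16. In these 3 genes the Hepa1-6 groups were apart and the B16 groups overlapped. The line differences were -2.77 for Cyria, -2.24 for Loxl2, -1.63 for Ctsh, -1.55 for Esyt1, a tether of the endoplasmic reticulum to the plasma membrane, -1.22 for Sort1, the sorting receptor sortilin, and -2.62 for Klhl30, with adjusted p from 0.0261 to 0.0464. These calls were kept in 3 of the 18 fits without 1 library for Esyt1 and Sort1, in 4 for Cyria, in 9 for Ctsh and Klhl30 and in 11 for Loxl2.

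**Figure D2:**
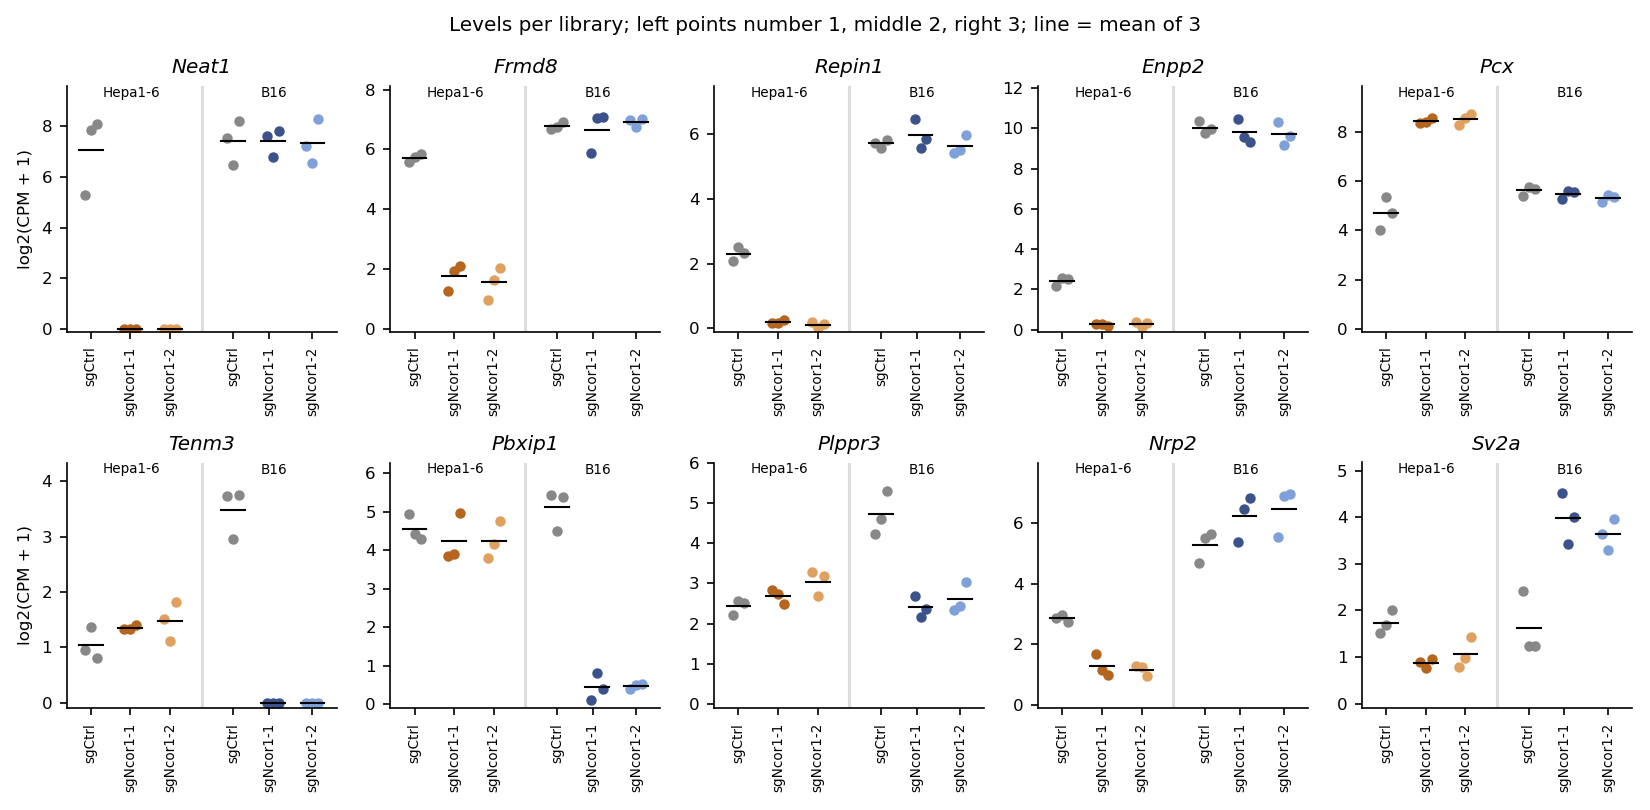
Level of 10 line-dependent genes in each library as log2(CPM + 1); points are libraries 1, 2 and 3 from left to right, colours are guides and black lines are means of 3. Neat1, Frmd8, Repin1 and Enpp2 were low in all 6 Hepa1-6 knockout libraries, Pcx was high in all 6, and Tenm3, Pbxip1 and Plppr3 were low in all 6 B16 knockout libraries.

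Of the 9 line-dependent genes with the larger change in B16, 8 fell and Sv2a rose. Tenm3, a teneurin that joins neurons through latrophilin receptors, had 12.4, 6.75 and 12.5 CPM in the B16 controls and no count in any of the 6 knockouts, which is at least 46.2-fold lower when 3 counts (up to 0.228 CPM) are the floor of each library. In Hepa1-6 it had 0.751 to 1.57 CPM in the controls and 1.17 to 2.54 CPM in the knockout libraries, which overlapped. The line difference had an adjusted p of 3.57e-05. Plppr3, a neuronal membrane protein related to lipid phosphate phosphatases, had 17.8, 23.2 and 38.4 CPM in the B16 controls and 3.50 to 7.22 CPM in the knockout libraries, against 3.63 to 4.91 CPM and 4.64 to 8.70 CPM in Hepa1-6. The B16 groups were apart, and after the fall the B16 levels overlapped those of Hepa1-6. The line difference of Plppr3 was 3.00 (SE 0.43, adjusted p = 0.00308).

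Pbxip1, which binds oestrogen receptors, had 42.5, 21.8 and 41.0 CPM in the B16 controls and 0.076 to 0.772 CPM in the knockout libraries. In Hepa1-6 it had 30.0, 20.6 and 18.5 CPM in the controls and 13.0 to 30.2 CPM in the knockout libraries. The control levels overlapped between the lines, the B16 knockout libraries lay far below them, and the line difference was 6.16 (SE 0.61, adjusted p = 5.84e-05). Bcas1, a marker of newly myelinating oligodendrocytes, had 2.17, 3.75 and 8.99 CPM in the B16 controls and 0 to 0.428 CPM in the knockout libraries, against 3.89 to 6.91 CPM and 4.60 to 7.47 CPM in Hepa1-6. Groups were apart in B16 and overlapped in Hepa1-6. The line difference was 5.67 (SE 0.94, adjusted p = 0.0117), and its call was lost without any 1 of the 3 Hepa1-6 controls and without B16 sgCtrl 3.

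The other 4 genes that fell in B16 were low there and higher in Hepa1-6. Mast4, a microtubule-associated kinase, had 0.197, 1.17 and 1.16 CPM in the B16 controls and no count in the 6 knockout libraries, at least 3.7-fold lower, against 23.2 to 40.7 CPM over all Hepa1-6 libraries (adjusted p = 0.00968 for the line difference, and 0.0741 without the Hepa1-6 libraries numbered 1). Marveld2, the tricellulin of tight junctions, had 0.402 to 0.645 CPM in the B16 controls and at most 0.0404 CPM in the knockout libraries, against 5.08 to 11.8 CPM in Hepa1-6. Zfp941, a zinc finger gene, had 0.641 to 1.79 CPM and at most 0.0594 CPM in B16, against 8.83 to 23.6 CPM in Hepa1-6. Fsd1l had 2.52 to 3.65 CPM and 0.304 to 1.08 CPM in B16, against 32.0 to 54.9 CPM in Hepa1-6. In all 4 the B16 groups did not overlap. The line differences were 4.97 for Marveld2, 4.80 for Zfp941 and 2.43 for Fsd1l, each with an adjusted p under that of Mast4. For Marveld2 and Zfp941 the Hepa1-6 knockout libraries also lay below all controls, with log2 changes of -0.53 and -0.72 that were not called.

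Opposite changes were few. Sv2a, a synaptic vesicle glycoprotein, had 4.34, 1.35 and 1.34 CPM in the B16 controls and 8.77 to 21.9 CPM in the knockout libraries, and 1.87, 2.23 and 3.00 CPM in the Hepa1-6 controls and 0.698 to 1.68 CPM in the knockout libraries. The groups did not overlap in either line, and the directions were opposite. It rose in B16 (log2 change 2.52, SE 0.45, adjusted p = 0.0258), the change of -1.29 in Hepa1-6 was not called (SE 0.41, adjusted p = 0.278), and the line difference was -3.81 (SE 0.60, adjusted p = 0.00807). Its call was lost without B16 sgCtrl 3. With the replicate block in both lines edgeR called Sv2a in each line, at 2.64 in B16 (adjusted p = 0.000562) and -1.29 in Hepa1-6 (adjusted p = 0.0286). Gcat, the mitochondrial enzyme that turns a product of threonine into glycine, had 3.78 to 4.81 CPM in the Hepa1-6 controls and 7.41 to 12.8 CPM in the knockout libraries, and 10.5 to 17.2 CPM and 3.48 to 11.1 CPM in B16, where the groups overlapped. Neither line alone was called (log2 changes 1.35 and -0.96, adjusted p = 0.115 and 0.656), and the line difference of 2.32 was (SE 0.45, adjusted p = 0.0452), but in only 3 of the 18 fits without 1 library. With the replicate block in both lines edgeR called Gcat in each line, at 1.33 in Hepa1-6 (adjusted p = 0.00504) and -0.99 in B16 (adjusted p = 0.0305).

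Among the 8953 genes with at least 5 CPM in each line, all 6 knockout libraries lay above the controls for 382 genes in Hepa1-6 (4.27%) and 69 in B16 (0.771%), and below them for 445 (4.97%) and 96 (1.07%). In both lines at once, 5 genes (0.0558%) were higher in Hepa1-6 and lower in B16, and 6 (0.067%) were lower in Hepa1-6 and higher in B16. The first group included Smco4 and Tedc1, with log2 changes of 1.38 and 0.56 in Hepa1-6 and -0.53 and -0.62 in B16. TEDC1 acts at centriolar microtubules. The second group included Irf2bpl, Hspb8 and Sdcbp, with -0.55, -0.46 and -0.34 in Hepa1-6 and 0.91, 0.51 and 0.43 in B16. HSPB8 is a small heat shock protein and SDCBP, or syntenin, takes part in exosome formation. Sdcbp had 337 to 396 CPM in the Hepa1-6 controls and 239 to 308 CPM in the knockout libraries, and 500.4 to 537 CPM and 610.2 to 754 CPM in B16. No line difference of these 5 genes was called by edgeR with no block and all libraries (adjusted p from 0.21 to 0.366). With the replicate block in both lines edgeR called those of Smco4 (adjusted p = 0.0107), Irf2bpl (0.0168), Hspb8 (0.0116) and Sdcbp (0.021). DESeq2 called those of Smco4 (adjusted p = 0.00682), Hspb8 (0.00738) and Sdcbp (1.75e-05), and edgeR that of Hspb8 without the libraries numbered 1 of both lines (0.0349). DESeq2 also called Sdcbp in both lines, at -0.35 (adjusted p = 0.0332) and 0.44 (adjusted p = 0.00444).

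Fewer genes were apart in the same direction in both lines. All 6 knockout libraries lay above the controls in both lines for 3 genes (0.0335%) and below them in both for 0 genes (0%). When 1 library was left out, these counts ran from 1 to 12 genes in the same direction and from 10 to 36 in opposite directions. Neither class was compared with the number that the shares in each line alone would give, so neither is shown to exceed it. The 3 were Ninj1, which breaks the plasma membrane of dying cells, Mpzl1, a surface receptor of the phosphatase SHP-2, and Slc25a20, the carnitine-acylcarnitine carrier of fatty acid oxidation. Slc25a20 had 7.93 to 9.41 CPM in the Hepa1-6 controls and 10.9 to 13.0 CPM in the knockout libraries, and 20.8 to 22.2 CPM and 23.5 to 27.4 CPM in B16. The log2 changes were 0.39 and 0.30 for Ninj1, 0.25 and 0.35 for Mpzl1 and 0.43 and 0.25 for Slc25a20, none called, and the mean of the lines was not called for any of them (adjusted p from 0.494 to 0.585).

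Averaged over the lines, 2 genes (0.0142%) rose and 21 (0.15%) fell. Of these 23, 22 were called in 1 line as well, 17 had a called line difference and 14 had the same sign in both lines, and Pcx, Neat1, Tenm3 and Mast4 were among those with a called line difference. The gene called in neither line was Lamb1, a laminin chain named after its values were seen, with a mean of -2.85 (adjusted p = 0.0161) and log2 changes of -1.46 in Hepa1-6 (adjusted p = 0.225) and -4.25 in B16 (adjusted p = 0.0799). With the replicate block in both lines edgeR called Lamb1 in each line, at -1.59 in Hepa1-6 (adjusted p = 0.0038) and -4.21 in B16 (adjusted p = 0.0168). The other rise was Dnah11, an axonemal dynein heavy chain. It had 0.207, 0.152 and 0.25 CPM in the Hepa1-6 controls and 0.457 to 1.0 CPM in the knockout libraries, and 0.268 to 0.469 CPM and 1.6 to 10.1 CPM in B16. The knockout libraries lay above the controls in both lines, with log2 changes of 1.93 in Hepa1-6 (SE 0.59, adjusted p = 0.262) and 3.96 in B16 (SE 0.60, adjusted p = 0.00665). The mean was 2.95 (adjusted p = 0.00234), and the line difference of -2.03 was not called (SE 0.81, adjusted p = 0.613). With the replicate block in both lines edgeR called Dnah11 in each line, at 1.93 in Hepa1-6 (adjusted p = 0.0488) and 3.84 in B16 (adjusted p = 0.000562).

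Many genes called in 1 line had no called line difference. Of the 52 genes called in Hepa1-6, 15 had one, and of the 27 called in B16, 9 had one. In 9 of the Hepa1-6 genes every B16 group lay under 1 CPM. These 9, named after their values were seen, held Adcy8, an adenylyl cyclase, Krt23, a keratin, Msln, the surface protein mesothelin, Bgn, the proteoglycan biglycan, and the interferon-inducible GTPases Gvin1 and Gvin2, which are near copies and less certain. Adcy8 rose from 0.204 ± 0.105 CPM to 9.22 ± 1.704 and 9.57 ± 0.627 CPM (SD, n = 3), with at most 0.0358 ± 0.062 CPM in a B16 group. Msln fell from 12.6 ± 2.48 to 0.769 ± 0.285 and 1.38 ± 0.433 CPM, with at most 0.0358 CPM in B16. In B16, 7 called genes lay under 1 CPM in every Hepa1-6 group. These 7, also named after their values were seen, included Naalad2, a peptidase, which fell from 9.68 ± 3.08 to 0.953 ± 0.93 and 0.429 ± 0.333 CPM, and Dnah11.

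Where the other line did express the gene, its change was mostly small. Of the 28 genes called in Hepa1-6 alone, with no called line difference and at least 1 CPM in a B16 group, 26 changed by less than 0.5 on the log2 scale in B16. Of the 11 such genes called in B16, 7 changed by less than 0.5 in Hepa1-6. Their line differences had adjusted p over 0.05, which does not show that the lines responded alike.

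**Figure D3:**
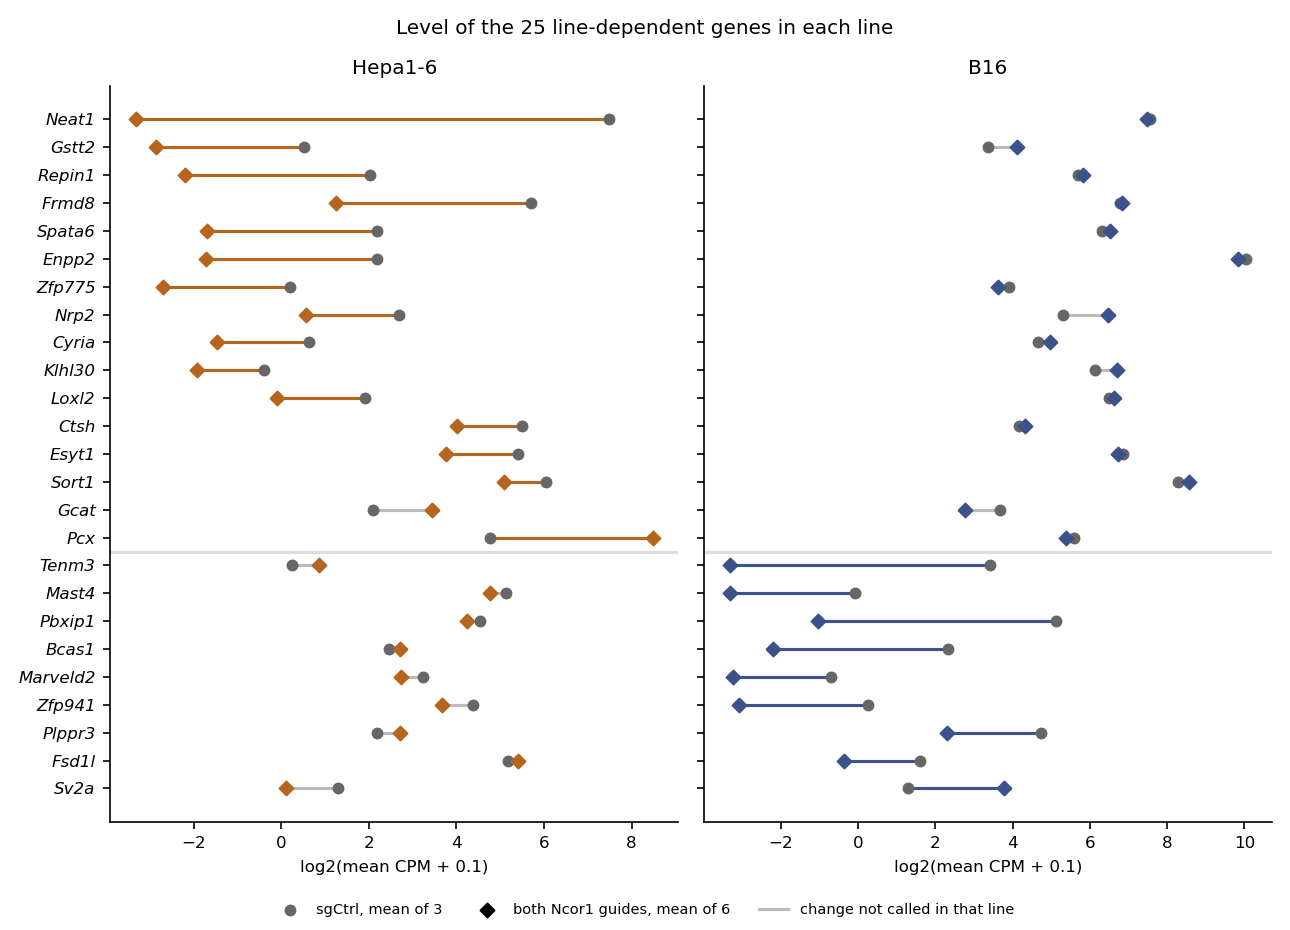
Mean level of the 25 line-dependent genes with the control guide (grey circles, 3 libraries) and with both Ncor1 guides (coloured diamonds, 6 libraries) in Hepa1-6 (left) and B16 (right), as log2(CPM + 0.1); coloured bars mark changes called in that line and grey bars changes that were not. Of the 16 genes with the larger change in Hepa1-6, 15 had the higher control level in B16.

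The control level differed between the lines for most line-dependent genes. All but 3 of the 25 reached 1 CPM in the controls of both lines, 22 in all. Of the 16 genes with the larger change in Hepa1-6, 15 had the higher control level in B16, the exception being Ctsh, with medians of 4.45 CPM in Hepa1-6 and 60.8 CPM in B16. Of the 9 with the larger change in B16, 3 had the higher control level in B16, with medians of 9.36 CPM in Hepa1-6 and 2.95 CPM in B16. Klhl30 on the Hepa1-6 side, and Mast4 and Marveld2 on the B16 side, lay under 1 CPM in the controls of the line that changed. These 3 were not tested when genes had to pass the filter in each line, so their place in this pattern was fixed by the filter. Over the 12880 genes with at least 1 CPM in a control group, 50.3% were higher in the B16 controls. The knockout libraries moved the level in the changing line further from that of the other line for Enpp2, Repin1, Spata6 and Loxl2, and towards it for Plppr3. In Neat1, with 180 CPM in Hepa1-6 and 188 CPM in B16, and in Pbxip1, with 23.03 and 35.1 CPM, the control libraries of the lines overlapped and a line difference was called.

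The 25 genes lay on 14 chromosomes, and 5 of them had a neighbour within 1 Mb that was called in the same line and direction. Neat1 and Frmd8 were counted as neighbours of each other, and so were Repin1 and Zfp775. The 25 genes had 840 tested neighbours in all, repeats included, and 0 to 83 each. Of all genes tested, 0.328% fell in Hepa1-6. How often any tested gene has such a neighbour was not counted, so no excess is shown. These were Neat1 with Frmd8, Repin1 with Zfp775, and Gstt2 with Zfp280b, 195 kb away, and Lrrc75b, 271 kb away. Zfp280b and Lrrc75b fell in Hepa1-6 by 1.32 (adjusted p = 0.0355) and 1.78 (adjusted p = 0.0477) on the log2 scale. Most genes nearest to them were not called. Beside Neat1, Dpf2 and Slc25a45 lie 51.0 and 32.3 kb away and had log2 changes of -0.02 and 0.88 in Hepa1-6, neither called. Around Repin1, Lrrc61, 23.2 kb away, had 0.26. Around Pbxip1, which fell in B16, Pygo2, Pmvk and Shc1 lie within 7 kb and had -0.07, 0.04 and 0.24 in B16. The median log2 change of the neighbours in the line that moved was 0.14 around Neat1, 0.07 around Repin1, -0.14 around Gstt2 and 0.11 around Pbxip1.

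**Figure D4:**
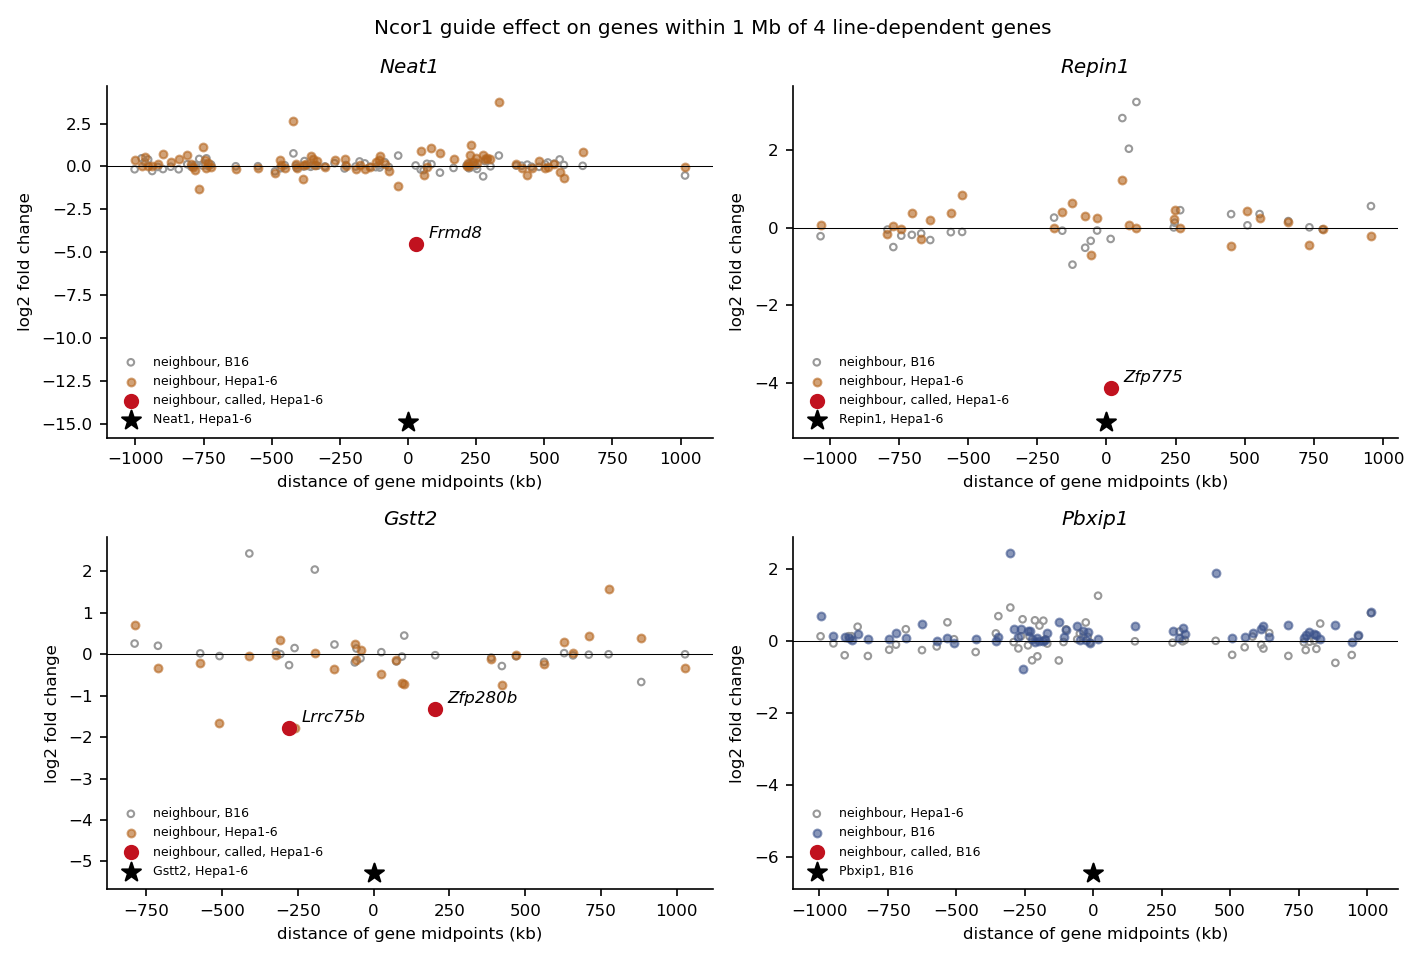
Log2 fold change of both Ncor1 guides against the control guide for tested genes within 1 Mb of Neat1, Repin1 and Gstt2 (Hepa1-6, orange) and Pbxip1 (B16, blue), against the distance between gene midpoints in kb; the star is the named gene, red points are neighbours called in the same line and grey circles are the other line. Frmd8 at Neat1, Zfp775 at Repin1, and Zfp280b and Lrrc75b at Gstt2 were the called neighbours, and Pbxip1 had none.

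Programmes were described as lists of genes, by the count of members called and the median log2 change, beside the medians of all 14044 genes tested (0.01 in Hepa1-6, 0.01 in B16 and 0.01 for the line difference). In the lists of cell division the lines leaned to opposite sides with no member called by edgeR with no block and all libraries. All 40 tested genes of G2/M and mitosis lay above 0 in Hepa1-6 (median 0.79) and all 40 below 0 in B16 (median -0.25), and the median line difference was 0.98. Of the 40, 19 had an unadjusted p under 0.05 for the line difference, against 970 of the 14044. For it 0 were called by edgeR with no block or by DESeq2, while DESeq2 called 1 as higher in Hepa1-6. Hmmr, a spindle protein, had 32.3, 53.2 and 70.4 CPM in the Hepa1-6 controls and 56.3 to 199 CPM in the knockout libraries, and 106 to 174 CPM and 70.0 to 109 CPM in B16, with overlap in both lines. Its line difference was 1.68 (SE 0.50, adjusted p = 0.388), and those of Cdc25c, which activates CDK1, and Ccnb2, a mitotic cyclin, were 1.27 (adjusted p = 0.373) and 1.49 (adjusted p = 0.395). With the replicate block in both lines edgeR called 1 gene of the list as higher in Hepa1-6 and the line difference of Cdc25c (adjusted p = 0.0423). The division lists moved with the Hepa1-6 libraries numbered 1, and the part of these libraries was measured by leaving them out. The median of the list in Hepa1-6 was 1.97 between libraries numbered 1, 0.35 between those numbered 2 and -0.30 between those numbered 3. The median line difference of G2/M and mitosis was 2.18 between libraries numbered 1, 0.57 between those numbered 2 and 0.06 between those numbered 3, and it was 0.28 without the Hepa1-6 libraries numbered 1, where the median in Hepa1-6 was -0.03.

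The lists of DNA synthesis and repair went the same way. The 34 tested genes of G1/S and DNA replication all lay above 0 in Hepa1-6 (median 0.54), and 31 of them below 0 in B16 (median -0.17), with 0 called by edgeR with no block or by DESeq2. With the replicate block in both lines edgeR called 1 of them as higher in Hepa1-6. Without the Hepa1-6 libraries numbered 1 the Hepa1-6 median was 0.14, and the median line difference was 0.36, against 0.73 with them. Mismatch repair, the subject of the series title, had 22 tested members, 16 above 0 in Hepa1-6 (median 0.32) and 2 above 0 in B16 (median -0.18), with 0 called in either line or in the line difference by edgeR or DESeq2, and 3 with an unadjusted p under 0.05 for the line difference. These 3 were Lig1, the replicative DNA ligase, and the clamp loader subunits Rfc5 and Rfc2, with line differences of 0.85, 1.39 and 0.78 (adjusted p from 0.705 to 0.719). Rfc5 had 15.9 to 22.2 CPM in the Hepa1-6 controls, 80.2 and 81.3 CPM in the knockout libraries numbered 1 and 20.8 to 24.9 CPM in the other 4. The median line difference of the list was 1.116 between libraries numbered 1 and 0.14 and 0.16 between those numbered 2 and 3, and 0.12 without the Hepa1-6 libraries numbered 1. The 27 genes of homologous recombination and the Fanconi pathway had medians of 0.37 in Hepa1-6 and -0.20 in B16, led by Fanca, with a line difference of 1.09 (SE 0.34, adjusted p = 0.438). Without the Hepa1-6 libraries numbered 1 the Hepa1-6 median of this list was 0.09, and the median line difference was 0.33, against 0.56 with them.

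The lists of lipid synthesis leaned up in Hepa1-6. Of 26 genes of cholesterol biosynthesis and uptake 25 lay above 0 in Hepa1-6 (median 0.59) and 15 in B16 (median 0.03), with 0 called by edgeR with no block, and 2 called as higher in Hepa1-6 by DESeq2. With the replicate block in both lines edgeR called 4 of them as higher in Hepa1-6 and 1 line difference. Without the Hepa1-6 libraries numbered 1 the Hepa1-6 median was 0.21. Of 22 genes of fatty acid synthesis and desaturation 21 lay above 0 in Hepa1-6 (median 0.61) and 16 in B16 (median 0.21), and without those libraries the Hepa1-6 median was 0.49. DESeq2 called 2 of these 22 as higher in Hepa1-6, and edgeR with the replicate block in both lines 8, with 0 line differences by either. Of all 14044 genes tested, 79 and 203 were called as higher there. Fads2, the delta-6 desaturase, rose in Hepa1-6, from 30.2, 68.0 and 92.2 CPM to 136 to 183 CPM (log2 change 1.31, SE 0.26, adjusted p = 0.0398). In B16 it had 79.1 to 92.5 CPM and 85.8 to 109 CPM, which overlapped, and its line difference of 1.18 was not called (SE 0.35, adjusted p = 0.373). Without the Hepa1-6 libraries numbered 1 no gene of the list was called in Hepa1-6. Srebf1, the regulator of this pathway, had 149 to 246 CPM in the Hepa1-6 controls and 327 to 434 CPM in the knockout libraries, a log2 change of 0.82 that was not called (adjusted p = 0.0883), and 0.28 in B16. The medians of LXR targets were 0.31 in Hepa1-6 and 0.28 in B16, and those of PPAR targets and fatty acid oxidation 0.20 and 0.26.

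Within the PPAR list single genes parted. Angptl4, an inhibitor of lipoprotein lipase, had 4.09, 6.10 and 5.28 CPM in the B16 controls and 21.0 to 131 CPM in the knockout libraries, all above the controls, and 6.17 to 23.1 CPM and 6.05 to 31.3 CPM in Hepa1-6, where the groups overlapped. Its log2 change was 3.33 in B16 (SE 0.71, adjusted p = 0.0864) and its line difference -3.01 (SE 0.87, adjusted p = 0.367), with a call without the libraries numbered 1 of both lines (-2.85, edgeR, adjusted p = 0.00485) and by DESeq2 (-3.02, adjusted p = 0.0366). Ppargc1a, the coactivator of mitochondrial genes, had 4.16 to 7.29 CPM in the Hepa1-6 controls and 1.09 to 2.95 CPM in the knockout libraries (log2 change -1.66, adjusted p = 0.0529), and 24.99 to 39.6 CPM and 18.5 to 59.7 CPM in B16 (0.41). The line difference of Ppargc1a was -2.06 (SE 0.50, adjusted p = 0.213), called by DESeq2 (adjusted p = 0.0183). Thyroid hormone and retinoid response genes had medians of -0.11 in Hepa1-6 and 0.20 in B16, and clock and REV-ERB genes 0.12 and 0.36, with 0 called by edgeR with no block in either line. DESeq2 called 1 of the first list as higher in B16 and 1 of the second as lower in Hepa1-6, and edgeR with the replicate block in B16 called 2 and 1 in these directions. That fit also called 3 genes of fatty acid synthesis and 1 LXR target as higher in Hepa1-6 and 1 PPAR target as lower there. The 16 genes of the NCoR and SMRT complex had medians of -0.14 and 0.06, and the median line difference was -0.29.

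Immune programmes leaned the other way round, up in B16. Of 53 interferon-stimulated genes 49 lay above 0 in B16 (median 0.40) and 17 in Hepa1-6 (median -0.16), the median line difference was -0.50, and it lay below 0 in each number (-0.35, -1.01 and -0.21). It was -0.60 without the Hepa1-6 libraries numbered 1. Of the list 1 gene, Gvin1, fell in Hepa1-6, and 6 had an unadjusted p under 0.05 for the line difference. Ddx58, the RNA sensor RIG-I, had 68.0 to 78.3 CPM in the Hepa1-6 controls and 43.7 to 63.7 CPM in the knockout libraries, with no overlap, and 118 to 139 CPM and 99.2 to 210 CPM in B16, where sgNcor1-1 1 lay below the controls and the other 5 above them. The line difference of Ddx58 was -1.001 (SE 0.27, adjusted p = 0.307) and was called without B16 sgNcor1-1 1 (-1.12, adjusted p = 0.0328), as was that of the GTPase Iigp1 (-3.04 with all libraries, -3.28 and adjusted p = 0.0407 without it). Oasl2, an antiviral oligoadenylate synthetase-like gene, had a line difference of -2.16 (SE 0.69, adjusted p = 0.468). With the replicate block in both lines edgeR called 3 line differences of the list, among them Ddx58 (adjusted p = 0.0398) and Oasl2 (0.0409).

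Of 22 genes of MHC class I antigen presentation 21 lay above 0 in B16 (median 0.17) and 8 in Hepa1-6 (median -0.16), with 0 called by edgeR with no block or by DESeq2 and 2 at an unadjusted p under 0.05. The B16 median was 0.27, 0.14 and -0.04 between libraries numbered 1, 2 and 3, and the median line difference -0.56, -0.54 and -0.05. Without the libraries numbered 1 of both lines the B16 median was 0.04. B2m, the light chain of class I, had 507 to 527 CPM in the Hepa1-6 controls and 281 to 485 CPM in the knockout libraries, all lower, and 883 to 1147 CPM and 1122 to 2166 CPM in B16, which overlapped. The line difference of B2m was -0.98 (SE 0.32, adjusted p = 0.472). With the replicate block in both lines edgeR called 1 gene of the list as lower in Hepa1-6 and the line difference of B2m (-1.005, adjusted p = 0.0385). The immunoproteasome subunit Psmb8 and the class I regulator Nlrc5 had -1.10 and -0.98 (adjusted p = 0.613 and 0.754). Checkpoint ligands had medians of -0.19 in Hepa1-6 and 0.35 in B16 over 14 genes, 0 of them called by edgeR with no block or by DESeq2, with 1 at an unadjusted p under 0.05, Nectin2, at -0.92 (adjusted p = 0.665). With the replicate block in both lines edgeR called 2 of them as lower in Hepa1-6 and the line difference of Nectin2 (-0.96, adjusted p = 0.0285). Without the Hepa1-6 libraries numbered 1 the Hepa1-6 median was 0.09. Summed levels of 10 immune cell markers were 15.0 to 107 CPM in Hepa1-6 and 0.712 to 4.49 CPM in B16, and their part in these lists was not tested.

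Called members stood in the matrix, guidance and detoxification lists. Of 42 genes of collagen and matrix 2 fell in Hepa1-6, Bgn and Loxl2, and 1, Loxl2, had a called line difference, and 13 had an unadjusted p under 0.05 for it. Over all genes tested 0.328% fell in Hepa1-6 and 0.171% in B16, 0.178% had a called line difference, and 970 of 14044 had an unadjusted p under 0.05 for it. The medians were -0.15 in Hepa1-6 and 0.19 in B16. Plod1, a collagen lysyl hydroxylase, had 9.31 to 12.1 CPM and 3.55 to 9.04 CPM in Hepa1-6, and 176 to 236 CPM and 222 to 311 CPM in B16, with a line difference of -1.06 (SE 0.32, adjusted p = 0.391). The 43 guidance genes held Nrp2 and Tenm3 as the called members, 1 in each line, and the 16 genes of lysophosphatidic acid signalling held Enpp2 and Plppr3, 1 in each line, against the same shares over all genes, while the medians of both lists lay between -0.18 and -0.02. Of 39 NRF2 targets and glutathione genes Gstt2 fell in Hepa1-6 and Gsta4, an alpha-class transferase, in B16, from 0.296, 1.88 and 1.48 CPM to at most 0.108 CPM (log2 change -4.58, SE 0.79, adjusted p = 0.0195), against 2.07 to 9.87 CPM and 2.04 to 6.84 CPM in Hepa1-6. The line difference of Gsta4, 4.11, was not called (SE 1.03, adjusted p = 0.229).

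**Figure D5:**
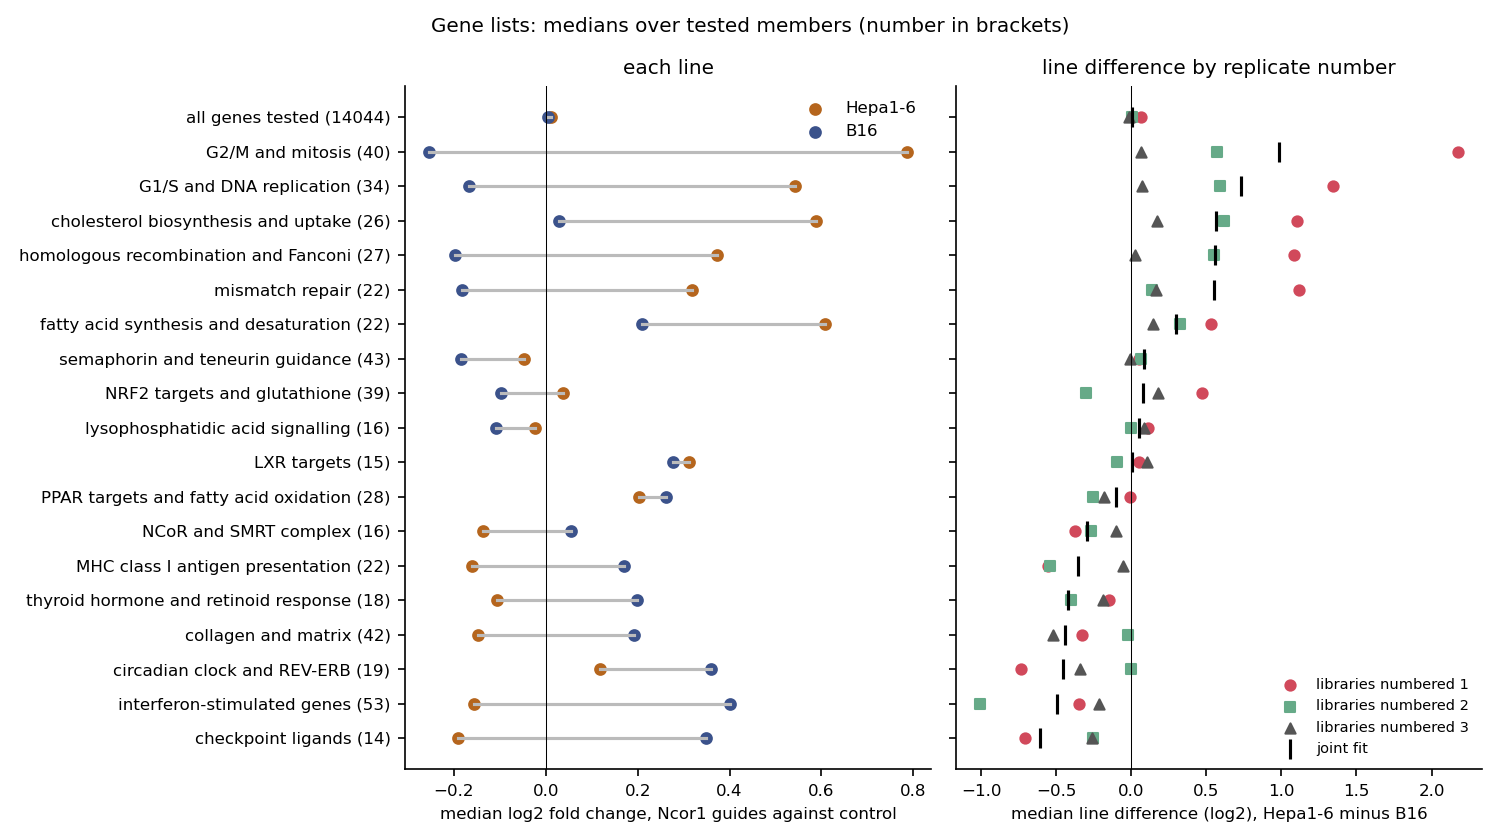
Median log2 fold change of 18 gene lists and of all genes tested in Hepa1-6 and B16 (left) and median line difference by replicate number and in the joint fit (right), with the number of tested members in brackets. The lists of division and DNA synthesis lie at the right, most in the libraries numbered 1, and the interferon, checkpoint and clock lists lie at the left.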

How the data were processed

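Polyadenylated RNA of 18 libraries, 6 groups of 3, was sequenced on a NovaSeq instrument. Per the submitters' processing notes, FastQC 0.12.1, Trim Galore 0.6.7, Bowtie2 2.2.5 and RSEM 1.2.8 were used with the genome build mm10. The sources used here give no gene annotation and no strandedness. The authors deposited RSEM expected counts, in a separate file for each line, of which 7.87% (Hepa1-6) and 7.19% (B16) were not whole. RSEM divides reads among near copies, and the values were rounded here.

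The tables were joined by symbol. Levels are CPM with TMM-scaled library sizes. Genes passing filterByExpr over the 6 groups were fitted with edgeR 4.0.16 (R 4.3.3; robust quasi-likelihood, 1 mean per group, 1 spread for all 18 libraries), and the SE is the log2 change divided by the root of its F statistic. Adjusted p-values come from edgeR unless another tool is named. DESeq2 1.42.0 and limma-voom 3.58.1 were alternatives, beside another scaling, other filters, replicate blocks, single guides and omitted libraries. The fit was tested on simulated data of 13836 genes, where it called 72 of 100 genes with a simulated line difference of 2 on the log2 scale and 10 of 100 with 1, and 5 unchanged genes. Differences were simulated only in genes with a mean of at least 5 CPM in each line, and replicate numbers and outlying libraries were not simulated. The recovered shares therefore do not cover line-dependent genes below that level in a line, such as Enpp2, Repin1, Spata6 and Gstt2. Limits from a count of 0 use a floor of 3 counts per library and cover counting error only.

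Genes named were Ncor1, up to 10 called line differences each way with at least 5 CPM in a group and a gene name, up to 3 genes each way of the classes without overlap and of the mean over the lines, the 3 members of each list with the smallest p of the line difference, and genes within 1 Mb of a named gene. Some genes that the rule names are not reported here. Members, lists and tests were chosen with earlier results of these data known. Of the symbols 98.9% had a single position in the RefSeq table (GRCm38.p6), and 16 of the 25 line-dependent genes had a promoter entry.

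Pairing was checked by correlating deviations from group means. In B16 all 9 correlations of same-numbered libraries lay between 0.45 and 0.68, and by the rule used the numbers pair these libraries. In Hepa1-6 they lay between 0.043 and 0.88, 8 of 9 over 0.1, and between lines from -0.13 to 0.13. No pair of libraries of a group agreed within counting noise (lowest chi-square per degree of freedom 6.58).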

Additional observations from a re-analysis of the deposited data

Results flagged for a closer look

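The effects in the lines differed by the test of the difference itself in 25 genes, with an adjusted p under 0.05 from edgeR in the joint fit of all 18 libraries. Values are the knockout effect in Hepa1-6 minus that in B16, on the log2 scale. The larger change lay in B16 for Bcas1 (5.67), Fsd1l (2.43), Marveld2 (4.97), Pbxip1 (6.16), Plppr3 (3.00), Zfp941 (4.80) and Sv2a (-3.81). It lay in Hepa1-6 for Ctsh (-1.63), Cyria (-2.77), Enpp2 (-4.20), Esyt1 (-1.55), Frmd8 (-4.60), Gstt2 (-6.01), Klhl30 (-2.62), Loxl2 (-2.24), Nrp2 (-3.34), Repin1 (-5.12), Sort1 (-1.22), Spata6 (-4.54), Zfp775 (-3.85), Gcat (2.32) and Pcx (3.96). Where all knockout libraries of a line held 0 counts the fitted size depends on the prior count, and the adjusted p of the line difference stands in its place: 0.00968 for Mast4 and 3.57e-05 for Tenm3, both without counts in the B16 knockout libraries, and 0.00017 for Neat1, without counts in those of Hepa1-6.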

How the results depend on the processing

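Counts below are of called genes, in the order line difference (25 with all libraries and edgeR), Hepa1-6 (52), B16 (27) and mean of the lines (23). DESeq2 gave 103, 231, 68 and 97, with 1 gene called in both lines at the same sign and 1 at opposite signs. The replicate block in both lines gave 236, 597, 103 and 182, with 2 at the same sign and 5 at opposite signs. In Hepa1-6 the numbers did not pair all libraries by the rule used. The replicate block in B16, added after seeing the data, gave 41, 133, 47 and 54, with 1 at opposite signs. The guide sgNcor1-1 alone gave 13, 17, 11 and 13, and sgNcor1-2 alone 11, 19, 10 and 13, from fewer libraries. Genes passing the filter in each line gave 30 in Hepa1-6 and 17 in B16. Without the libraries numbered 1 of both lines, also added after seeing the data, there were 49 line differences, 57 calls in B16 and 42 in the mean, with 1 gene called in both lines at the same sign and 1 at opposite signs.

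Genes without overlap in either line numbered 3 in the same direction and 11 in opposite directions. The same direction gave 1 with no filter on low counts, 25 with sgNcor1-1, 28 with sgNcor1-2, 19 without the Hepa1-6 libraries numbered 1 and 196 without those of both lines. Opposite directions gave 35, 92, 18 and 197 under the last 4 settings, which hold fewer libraries.

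Of 198 median line differences of lists under alternatives 16 moved by more than the spread used. Checkpoint ligands (-0.61) moved to -0.29 with no filter, -0.27 with the filter in each line and -0.16 with sgNcor1-2. Lysophosphatidic acid signalling (0.05) moved to 0.13, 0.12, 0.14 and 0.19 with no filter, the filter in each line, and without the libraries numbered 1 of Hepa1-6 and of both lines. Guidance genes (0.09) moved to -0.0095 with the filter in each line, -0.042 by DESeq2, -0.15 by limma-voom, -0.072 with the replicate block in both lines, 0.00085 with sgNcor1-2 and 0.0051 without the Hepa1-6 libraries numbered 1. LXR targets (0.01) moved to 0.14 with the filter in each line. Thyroid hormone and retinoid response (-0.42) moved to -0.58 with sgNcor1-1 and -0.24 without the libraries numbered 1 of both lines. The cause was not tested.

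Leaving out 1 library at a time gave 15 (without B16 sgCtrl 3) to 30 (without B16 sgNcor1-1 1) line differences, 21 to 77 calls in Hepa1-6, 15 to 33 in B16, 17 to 26 in the mean, 0 to 0 in both lines, 1 to 12 genes without overlap in the same direction and 10 to 36 in opposite directions. The list medians ranged over these fits from 0.78 to 1.17 for G2/M, 0.51 to 1.05 for G1/S, 0.36 to 0.67 for mismatch repair, 0.43 to 0.62 for homologous recombination, 0.25 to 0.78 for cholesterol, 0.24 to 0.43 for fatty acid synthesis, -0.18 to 0.14 for LXR, -0.18 to 0.01 for PPAR, -0.61 to -0.32 for thyroid and retinoid, -0.81 to -0.24 for clock, -0.70 to -0.40 for interferon, -0.49 to -0.25 for MHC class I, -1.11 to -0.32 for checkpoint, -0.62 to -0.26 for matrix, -0.37 to -0.24 for the NCoR complex, -0.08 to 0.20 for NRF2, -0.067 to 0.15 for lysophosphatidic acid and -0.077 to 0.18 for guidance.

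Of 2368 line differences of named genes under alternatives 2195 kept direction and side of the threshold, 142 lost and 27 gained a call, and 4 changed sign, none of them called. These were Mpzl1 (0.015 with sgNcor1-2), Arl4c (-0.31 without the libraries numbered 1 of both lines, -0.19 without B16 sgCtrl 1, in a range up to 3.11 when 1 library was left out) and Ninj1 (-0.049 without Hepa1-6 sgCtrl 2). Depth limits the genes without counts in a group, whose fall is known only as a lower bound.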
